A study of Mus musculus with 21 samples.

Results

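The vitamin D receptor (VDR) was bound at 1405 sites that SI crypt shared with colon and that had no peak in SI villus. These crypt-and-colon sites were chosen by the measured VDR peak calls: a peak of the pooled SI crypt list counted as a member if 1 bp or more of it lay in a peak of the pooled colon list and none of it in a peak of the pooled SI villus list. They made up 1405 of the 12702 SI crypt sites (11.1%), beside 5670 sites with a peak in all 3 compartments, 2677 shared with SI villus and not with colon, and 2950 in SI crypt alone. They met 1421 of the 22882 colon peaks (6.21%). Since VDR calls picked the sites, every VDR value below is a description with no test. The ATAC-seq calls, the DNA sequence and the position in the genome were not used in the choice.

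The VDR ChIP-seq samples came from wild-type C57BL/6J mice injected with 10 ng/g 1,25(OH)2D3, the hormonal form of vitamin D, and killed 1 h later, with 4 samples each of SI crypt, colon and SI villus. ChIP-seq recovers the DNA bound by a protein with antibodies against it and maps it by sequencing. The labels give these mice as 4 to 6 weeks old and the paper as older. No ChIP-seq sample without hormone was analysed here, so a peak marks binding after treatment and not a response to it. ATAC-seq, which maps accessible chromatin through the insertions of the Tn5 transposase, was done on 3 samples of each compartment from other C57BL/6J mice of 90 days. The study's methods name no treatment for the ATAC-seq mice, while a protocol text in their labels names treatment with the same hormone. SI crypts and villi were separated from the proximal small intestine. Colon was a scraping of the mucosa over its whole length, so its crypt and surface cells were measured together, and fewer cells of a type cannot be told apart from weaker binding per cell. Which samples came from the same mouse is not stated, and a p-value here covers the spread among samples that may share an animal.

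VDR binds DNA with its partner RXR, typically at a DR3 element, which is a direct repeat of a nuclear receptor hexamer with a spacer of 3 bp. In the intestine it is known for calcium absorption, where it acts on the genes of the apical channel Trpv6 and the basolateral calcium pump Atp2b1. Crypts hold the stem cells and dividing progenitors of the epithelium, villi hold the differentiated absorptive enterocytes, and the colon has crypts but no villi.

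The DR3 sequences are shown first because DR3 is the element that VDR with RXR is known to bind. Of the 44 crypt-and-colon sites with a DR3, the following 9 had a −log10 q of at least 10 in SI crypt and of at least 20 in colon, where q is the false discovery rate that the authors' peak caller MACS2 gave the pooled peak. The capitals mark the DR3, and coordinates and bases are those of mm9. Each sequence reads 5′ to 3′ on the strand named.
Tle2, chr10:81047918-81047978, minus strand: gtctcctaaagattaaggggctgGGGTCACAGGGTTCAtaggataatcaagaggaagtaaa
Atp2b1, chr10:98290389-98290449, plus strand: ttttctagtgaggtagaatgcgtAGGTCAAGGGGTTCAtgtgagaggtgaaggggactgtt
Sergef, chr7:53892766-53892826, plus strand: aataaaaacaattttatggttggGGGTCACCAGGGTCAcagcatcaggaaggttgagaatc
Rsl1d1, chr16:11215449-11215509, minus strand: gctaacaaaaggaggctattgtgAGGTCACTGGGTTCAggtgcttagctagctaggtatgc
Rfx2, chr17:56968980-56969040, plus strand: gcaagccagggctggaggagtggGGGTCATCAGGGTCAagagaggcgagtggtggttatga
Fam76b, chr9:13768844-13768904, minus strand: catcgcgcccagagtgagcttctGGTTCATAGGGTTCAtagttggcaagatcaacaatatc
Rhobtb1, chr10:68464453-68464513, minus strand: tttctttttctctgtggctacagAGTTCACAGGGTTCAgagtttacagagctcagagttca
Gm9843, chr16:76674600-76674660, minus strand: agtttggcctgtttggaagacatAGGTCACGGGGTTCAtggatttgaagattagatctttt
Agap1, chr1:91309875-91309935, minus strand: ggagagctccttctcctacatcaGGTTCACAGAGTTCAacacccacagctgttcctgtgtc

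The next 4 sites were also among those the results turn on. Bcl11b, Psap and Tagap were ranked by peak strength and differed from the DR3 consensus at 1 base, and the capitals mark that closest match. The Trpv6 site, of a known vitamin D target, differed at 2 bases. A match with at most 2 differences was common, at 35.5% of all crypt-and-colon summits and in 13.9% of sequences 1 kb toward higher coordinates.
Bcl11b, chr12:109070106-109070166, plus strand: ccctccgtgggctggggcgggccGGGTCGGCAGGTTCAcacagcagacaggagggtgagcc
Psap, chr10:59718962-59719022, minus strand: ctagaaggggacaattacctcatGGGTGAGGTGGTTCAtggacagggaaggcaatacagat
Tagap, chr17:8078666-8078726, plus strand: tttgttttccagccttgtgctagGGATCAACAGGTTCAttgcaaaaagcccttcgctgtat
Trpv6, chr6:41590337-41590397, plus strand: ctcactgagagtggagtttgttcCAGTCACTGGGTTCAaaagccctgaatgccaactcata

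Of the 9 DR3 sites, those near Tle2, Atp2b1 and Sergef had the highest −log10 q in SI crypt. The site near Atp2b1, the calcium pump, lay at −87.4 kb from the transcription start site (TSS), upstream in intergenic sequence. It had a −log10 q of 31.6 in the pooled SI crypt list and 192 in the pooled colon list. All 4 colon samples called the Atp2b1 site (−log10 q of 16.3, 53.3, 71.4 and 52.0), against 1 SI crypt sample (20.8) and no SI villus sample. An SI villus peak began 1312 bp away from it. The site in an intron of Tle2, a Groucho corepressor of Wnt target genes, lay 10.6 kb past the TSS with a −log10 q of 49.1 in SI crypt and 23.6 in colon. It was called in 2 SI crypt samples (10.4 and 30.8) and 2 colon samples (8.75 and 10.7) and in none of SI villus. The site in an intron of Sergef was called in 2 SI crypt samples (9.55 and 14.6) and 3 colon samples (10.1, 13.3 and 17.7). None of these 3 sites overlapped an ATAC-seq peak in any sample. The other 6 sites were called in 0 to 2 SI crypt samples, 1 to 3 colon samples and 0 SI villus samples. They lay between −271 and 137 kb from their nearest TSS.

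Peak strength among the crypt-and-colon sites was moderate and widely spread. The median −log10 q was 4.94 in SI crypt (quartiles 3.43 and 8.05, range 1.35 to 109.7) and 7.27 in colon (quartiles 4.46 and 14.7, highest 318). The fold enrichment, the pileup at the summit over the local background of the same list, had a median of 3.60 in SI crypt and 3.37 in colon. The sites were narrower and weaker than the 5670 sites of all 3 compartments, with a median length of 357 against 470 bp and a median SI crypt −log10 q of 4.94 against 11. The crypt-and-villus sites had a median of 5.11. The SI crypt and colon summits of a site lay a median of 68 bp apart. The nearest SI villus peak lay a median of 15.3 kb away, and 357 sites (25.4%) had none within 50 kb.

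The rule turns on the overlap of called peaks, and some sites lay close to its limit. An SI villus peak lay within 50 bp of 29 of the sites, the closest at 7 bp, and their median SI crypt −log10 q was 4.08. Just outside, 43 sites were left out because of an SI villus overlap of at most 50 bp, the smallest of 1 bp, and their median was 4.44. At 56 of the sites the colon peak covered at most 50 bp.

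**Figure D1:**
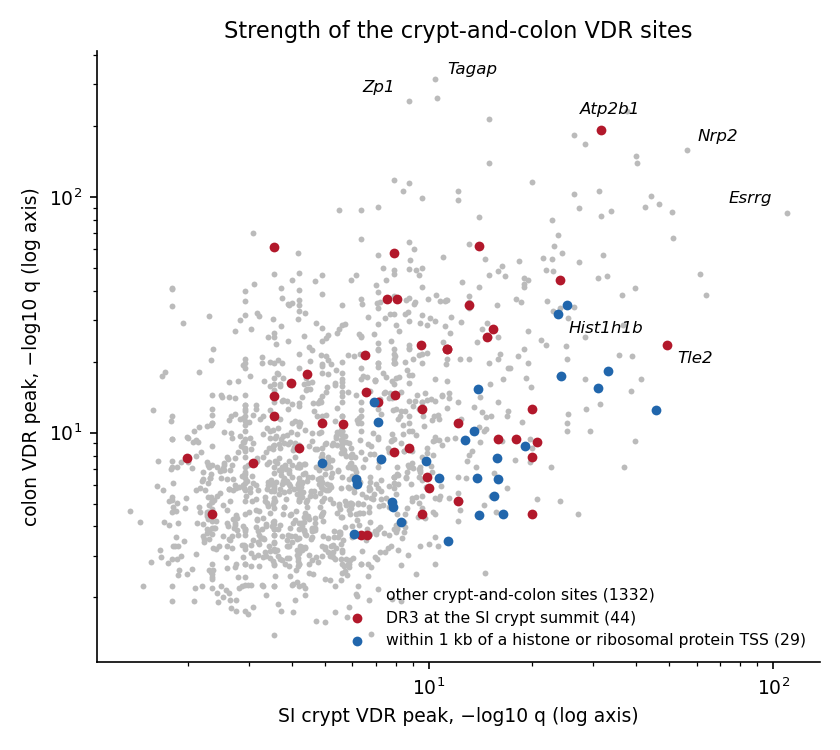
The −log10 q of the pooled SI crypt peak (horizontal, log axis) and of the colon peak it overlaps (vertical, log axis) for each of the 1405 crypt-and-colon sites. Red points are the 44 sites with a DR3, blue points the 29 sites within 1 kb of the TSS of a histone or ribosomal protein gene, and grey points the others. The strongest site in SI crypt is at Esrrg (109.7) and the strongest in colon near Tagap (318).

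Single samples supported the pooled calls unevenly. SI crypt sample 1 held 13381 peaks, against 1136 to 2480 in the other 3, although it kept the fewest fragments after those at the same position were removed (3100376, against 5819723 to 9021688). The crypt-and-colon sites were overlapped by peaks of the 4 SI crypt samples at 36.2%, 5.05%, 0.996% and 12.7%, and by peaks of the 4 colon samples at 6.98%, 22.5%, 30.1% and 41.8%. In the 4 SI villus samples the shares were 4.34%, 2.06%, 0.142% and 1.85%. The highest SI villus share was below all 4 colon shares and above 1 of the SI crypt shares. Of the 1405 sites, 749 were called in no single SI crypt sample and 440 in sample 1 alone. Another SI crypt sample called 216 of them. At least 1 SI crypt and 1 colon sample called 369 sites, of which 327 had no call in an SI villus sample, while 326 were called in no sample of SI crypt or colon and rest on the pooled lists alone. Calls in 2 or more SI crypt and 3 or more colon samples, with none in SI villus, were found at 33 of the crypt-and-colon sites and at 66 of all SI crypt sites (0.52%).

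**Figure D2:**
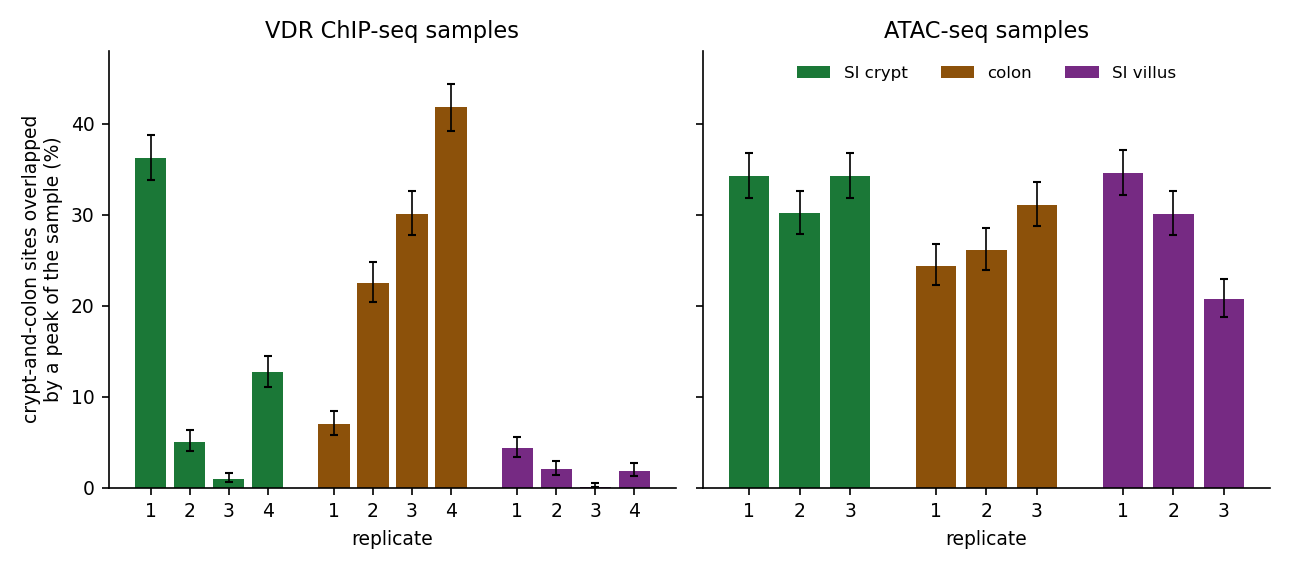
Percent of the 1405 crypt-and-colon sites overlapped by a peak of each VDR ChIP-seq sample (left, 4 replicates per compartment) and of each ATAC-seq sample (right, 3 replicates), with 95% Wilson intervals that cover counting error only. VDR calls run from 0.996 to 36.2% in SI crypt, 6.98 to 41.8% in colon and 0.142 to 4.34% in SI villus, while ATAC-seq shares lie between 20.8 and 34.6% in every compartment.

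The strongest SI crypt site of the class lay in an intron of Esrrg, the orphan nuclear receptor ERRγ, 96.8 kb past its TSS (mm9 chromosome 1, 189529237 to 189529712). Its fold enrichment was 15.2 in SI crypt and 15.7 in colon. SI crypt samples 2 to 4 called the Esrrg site at a −log10 q of 40.0, 15.1 and 49.3 and colon samples 2 to 4 at 23.5, 19.6 and 39.9, and no SI villus sample called it. The nearest SI villus peak lay 312 kb away. The site overlapped an ATAC-seq peak in 2 SI crypt samples (−log10 q of 6.00 and 3.54) and in none of colon or SI villus.

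The site at −4.67 kb from Nrp2, a co-receptor for semaphorins and VEGF, was among the 10 strongest of both tissues. It was called in 3 SI crypt samples (3.82, 16.4 and 33.3) and 3 colon samples (36.5, 36.6 and 74.6), with no SI villus peak within 402 kb. An intron of Cradd, an adaptor of caspase-2, held a site with a pooled −log10 q of 63.7 in SI crypt and 38.5 in colon, called in 3 samples of each. Neither the Nrp2 nor the Cradd site overlapped an ATAC-seq peak in any sample. The Nrp2 site belonged to the deposited set with more binding in colon than in SI villus, and the Cradd site to that with more in SI crypt than in SI villus.

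Accessible chromatin at several strong sites was called in SI crypt samples alone. The site at −21.4 kb from Psap, the precursor of the lysosomal saposins, had a −log10 q of 46.8 in SI crypt and 93.3 in colon. SI crypt samples 2 and 4 called it at 13.9 and 25.5, and the 4 colon samples at 6.43, 27.0, 20.6 and 31.6. All 3 SI crypt ATAC-seq samples had a peak there (6.00, 9.50 and 9.52) and no colon or SI villus sample did. The intronic site of Vgll4, a cofactor of TEAD transcription factors, had the same pattern, with VDR calls in 3 SI crypt samples (9.76, 20.4 and 9.48) and 3 colon samples (35.7, 24.3 and 40.4). Its ATAC-seq peaks were again in the 3 SI crypt samples (8.67, 5.45 and 12.4). Both sites were in both deposited sets above SI villus.

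The 10 sites strongest in colon had a −log10 q of 8.73 to 56.2 in SI crypt, all above the upper quartile of the class. Near Tagap, a gene of activated T cells, a site at −40.1 kb from the TSS had the highest colon −log10 q of the class, 318, and one of 10.4 in SI crypt. The 4 colon samples called the Tagap site at 13.9, 93.1, 85.2 and 122, and no SI crypt or SI villus sample did. Its ATAC-seq peaks lay in the 3 colon samples (6.23, 7.44 and 23.03). A site 85.6 kb past the TSS of Azin1, an inhibitor of the antizymes of polyamine control, had a −log10 q of 10.6 in SI crypt and 263 in colon, with calls in all 4 colon samples (22.4, 93.1, 52.8 and 91.5). The Zp1 site had 8.73 in SI crypt and 256 in colon, with ATAC-seq peaks in 1 SI crypt and 3 colon samples. The site at −86.8 kb from Lmx1b, a LIM homeodomain factor, had 37.7 in SI crypt and 232 in colon. It was called in 2 SI crypt samples (13.3 and 10.2) and 4 colon samples (9.54, 59.3, 53.0 and 118).

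The deposited sets of differential binding, made by the authors with DiffBind on these ChIP-seq samples, were read as positions. They are not independent of the rule. Of the crypt-and-colon sites, 175 (12.5%) lay in the set with more binding in colon than in SI villus, which held 2.15% of all SI crypt sites, and 46 (3.27%) lay in the set with more in SI crypt than in SI villus, which held 0.59%. Both sets held 29 of them, and 192 (13.7%) were in either. The 46 sites covered 45 of the 80 intervals of the SI crypt set (56.3%). Of those 46, 17 lay within 1 kb of a TSS, 14 within 3 kb past a gene's 3′ end, and none held a DR3. Of the 146 sites in the colon set and not the SI crypt set, 7 lay within 1 kb of a TSS and 5 held a DR3.

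Genes of known vitamin D response carried a few of these sites. Of 22 genes on a list of vitamin D targets, 4 had a crypt-and-colon site within 10 kb of the TSS (18.2%), against 897 of all 22380 protein-coding genes (4.01%). A site common to all 3 compartments was near 11 of the 22 (50%), against 17.1% of all protein-coding genes. A crypt-and-villus site was near 3 of the 22 (13.6%), against 5.89%. A share above that of all genes was thus not particular to the crypt-and-colon sites. The Trpv6 site lay at −3.95 kb from the TSS, with a −log10 q of 12.4 in SI crypt and 29.4 in colon. The Trpv6 site was called in 1 SI crypt sample (3.04) and 3 colon samples (16.0, 4.75 and 6.30), and also in 1 SI villus sample (7.92) although the pooled SI villus list had no peak on it. The intronic site of Shroom1, an actin-binding protein, was called in 3 SI crypt samples (6.19, 6.93 and 17.0) and 2 colon samples (12.0 and 9.18) and in no SI villus sample. The site −3.71 kb from the TSS of Rxrb, a partner of VDR, lay at the promoter of another gene, H2-Ke6, and had 10.9 in SI crypt and 14.4 in colon. That of Slc30a10, a manganese exporter, had 10.7 in SI crypt and 5.25 in colon. An SI villus peak lay 427 bp from the Slc30a10 site and 1769 bp from the Trpv6 site. The paper counts both genes among those regulated by the hormone in all 3 compartments. The Slc30a10 site was called in 1 SI crypt sample and no colon sample.

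Of 30 cell cycle genes, 8 (26.7%) had a crypt-and-colon site within 10 kb. They were Mki67, Ccnb2, Ccnd2, Mcm6, Mcm7, Pcna, Cdc6 and Myc. For comparison, 7 of the 30 (23.3%) had a site of all 3 compartments and 5 (16.7%) a crypt-and-villus site. Of all protein-coding genes, 4.01% had a crypt-and-colon site, 17.1% a site of all 3 compartments and 5.89% a crypt-and-villus site. Most of the sites were weak: the pooled SI crypt −log10 q was 11.4 at Pcna, the DNA polymerase clamp, 7.59 at Myc, and 2.24 to 3.68 at the other genes. The Pcna site lay 5.51 kb past the TSS of Pcna, at the promoter of another gene, and was called in 1 SI crypt and 3 colon samples. The Mcm7 sites lay past the 3′ ends of other genes, Cops6 (1295 bp) and Ap4m1 (984 bp). The Cdc6 site lay 657 bp past the end of Wipf2, and the Myc site 553 bp past that of Myc itself. The promoter sites of Ccnb2 and Mcm6 were also called in 1 SI villus sample. With a −log10 q of at least 5 required in both lists, 2 of the 8 genes were left, and none with a call in an SI crypt sample other than sample 1.

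The lists of differentiated cells were set against the same share of all protein-coding genes, 4.01%. Of 25 SI villus enterocyte genes, only Fabp2, a fatty acid carrier, had a crypt-and-colon site (4.00%), with a −log10 q of 1.87 in SI crypt, while 20 had a crypt-and-villus site. Of 30 colon epithelium genes, only Lypd8 had one (3.33%). Both shares were near that of all genes. Goblet cell genes had 3 of 16 (18.8%), at Muc2 (4.01 in SI crypt, 13.2 in colon), Muc1 (4.20 and 7.17, at the promoter of another gene) and Atoh1, the transcription factor of the secretory lineage. Of the same 16, 5 (31.25%) had a site of all 3 compartments, against 17.1% of all genes. A crypt-and-villus site was near 2 of them (12.5%), against 5.89%. The Atoh1 promoter site was called in 1 SI crypt sample (8.53) and 3 colon samples (4.03, 6.88 and 10.2). Among Wnt genes, Axin2, Fzd5 and Myc carried a site (3 of 30), and among stem cell genes Sox9 and Soat1 did (2 of 25). Notch and secretory lineage genes had 2 of 19, at Atoh1 and Foxa2, and junction genes 2 of 29, at Cldn15 and Ctnnd1. The antimicrobial list had 1 of 15 (Pigr), the AP-1 and stress list 1 of 20 (Klf5), and the immune and stromal list 1 of 25 (Cd79a, whose site lies next to Rps19). No gene of 20 enteroendocrine or 27 TGF-beta and BMP genes had one.

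Histone genes were numerous among the promoters, a group formed by symbol after the values were seen. Of 67 replication-dependent histone genes, which are transcribed in S phase, 19 (28.4%) had a crypt-and-colon summit within 1 kb of the TSS, against 318 of all 22380 genes (1.42%). The 19 genes shared 15 sites, and neighbouring histone genes can share a promoter. The Hist1h1b site, at the gene of a linker histone, was called in 3 SI crypt samples (10.5, 5.67 and 18.5), 4 colon samples (8.43, 4.16, 19.6 and 9.40) and no SI villus sample. The Hist1h3c site was called in 3 SI crypt samples (11.9, 4.58 and 19.8) and 2 colon samples (4.86 and 11.8). Of all crypt-and-colon sites, 46.7% were called in an SI crypt sample, 7.47% in an SI villus sample and 43.6% in no colon sample. The rule allowed no pooled SI villus peak, so few SI villus calls are not particular to histone promoters. Of the 15 histone sites, 13 were called in an SI crypt sample, 10 in a colon sample and 0 in an SI villus sample. A pooled ATAC-seq peak covered 13 of them in SI crypt, 15 in colon and 15 in SI villus, and 0 held a DR3. The histone promoters also held 18 sites of all 3 compartments, and 0 crypt-and-villus sites. Histone genes are near-identical copies, and how the aligner placed reads that fit several copies was not tested.

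Genes of cytosolic ribosomal proteins, grouped in the same way, had a site within 1 kb at 14 of 83 (16.9%), against 1.42% of all protein-coding genes. The Rps19 promoter was the strongest, with a −log10 q of 45.8 in SI crypt and 12.5 in colon. SI crypt samples 1, 3 and 4 called the Rps19 promoter at 33.2, 7.02 and 9.87, against 1 colon sample (5.01) and no SI villus sample. It overlapped an ATAC-seq peak in all 9 ATAC-seq samples. Of the 14 sites, 13 were called in an SI crypt sample, 4 in a colon sample and 1 in an SI villus sample. The shares of all crypt-and-colon sites given above for the histone promoters, and the limit on SI villus calls, apply here too. Of the 14 sites, 10, 13 and 11 lay in a pooled ATAC-seq peak of SI crypt, colon and SI villus. The promoters of all 83 genes held 35 sites of all 3 compartments, 3 crypt-and-villus sites and 5 sites of SI crypt alone.

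Most summits of the crypt-and-colon sites lay away from promoters. A TSS lay within 1 kb of 297 summits (21.1%, 95% Wilson interval 19.1 to 23.4%), against 27.2% of all SI crypt sites, 37.1% of the sites of all 3 compartments and 23.4% of crypt-and-villus sites. Another 461 summits (32.8%) lay in introns and 493 (35.1%) between genes, with the remaining sites in exons. The median distance to the nearest TSS was 9.86 kb, against 5.38 kb for sites of all 3 compartments and 15.2 kb for crypt-and-villus sites. Of the 709 crypt-and-colon sites whose nearest TSS lay within 10 kb, 385 (54.3%) belonged to a gene that had another VDR peak in SI villus within the same distance. The share was near that of sites of SI crypt alone, 485 of 925 (52.4%).

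The 3′ ends of genes were looked at after the sites had been seen. Outside promoters, a summit lay within 3 kb past the 3′ end of a protein-coding gene at 257 crypt-and-colon sites. That was 18.3% of all sites of the class, promoters included (Wilson interval 16.4 to 20.4%). On the same base it was 9.63% for sites of all 3 compartments, 6.24% for crypt-and-villus sites and 6.27% for sites of SI crypt alone. The classes differ in promoter share. Against the sites outside promoters alone, the counts were 257 of 1108, 546 of 3565, 167 of 2050 and 185 of 2528. Among the crypt-and-colon sites past a 3′ end was a site of 977 bp past Gnb2l1, the ribosomal scaffold RACK1. It was called in all 4 SI crypt samples (25.7, 6.92, 4.99 and 12.5) and 2 colon samples (5.91 and 5.09). A second Rps19 site, 907 bp past its end, was called in 2 SI crypt samples (6.34 and 10.9) and 4 colon samples (6.81, 7.72, 10.7 and 6.58). The Scnn1a site, at the sodium channel subunit of the colon surface, lay 403 bp past the gene with a −log10 q of 27.3 in SI crypt and 53.0 in colon. Myc had one 553 bp past its end, called in 2 colon samples and no SI crypt sample. Of the 257 sites, 45 (17.5%) overlapped a pooled SI crypt ATAC-seq peak, against 35.0% of all crypt-and-colon sites outside promoters. Past 3′ ends the share was 41.2% for sites of all 3 compartments, 21.6% for crypt-and-villus sites and 12.4% for sites of SI crypt alone.

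**Figure D3:**
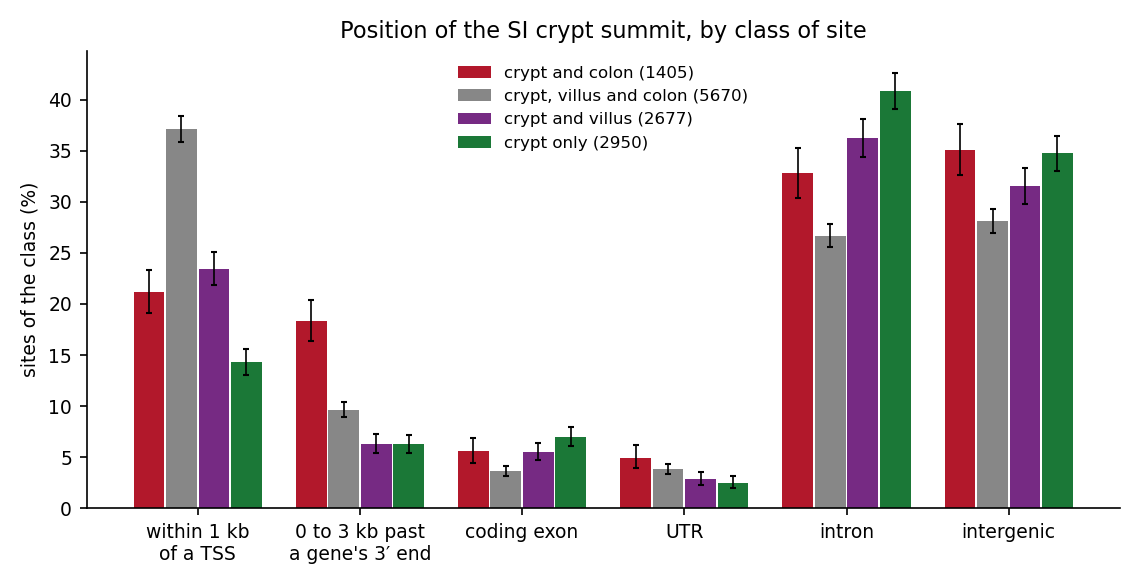
Percent of the SI crypt summits of each class of site in each place, with 95% Wilson intervals that cover counting error only. The stretch past a 3′ end overlaps with the other categories, and it holds 18.3% of crypt-and-colon sites, against 6.24 to 9.63% of the other classes, while promoters hold 21.1%, against 37.1% of the sites of all 3 compartments.

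DR3 was found in the 200 bp at the SI crypt summit, on either strand, at 44 of the 1405 sites (3.13%, Wilson interval 2.34 to 4.18%), against 2.31% of all SI crypt sites. In the sequences 1 kb to each side it was found in 2 of 2810 (0.0712%). The share was 3.33% at sites of all 3 compartments, 1.49% at crypt-and-villus sites and 0.712% at sites of SI crypt alone. It was 7.83% of the 230 crypt-and-colon sites with an SI crypt −log10 q of at least 10 and 1.41% of the 708 with one under 5. Among sites of at least 10 in the other classes it was 5.31% for crypt-and-villus sites and 4.98% for sites of all 3 compartments. For the 84 such sites of SI crypt alone it was 8.33%, so the share at strong sites was not particular to the crypt-and-colon sites. The element lay a median of 8 bp from the summit, and within 25 bp of it at 35 of the 44 sites. All 44 lay over 1 kb from a TSS, and 33 of them over 10 kb. Of the 44, 21 were called in an SI crypt sample, 36 in a colon sample and 3 in an SI villus sample. Of all 1405 sites, 46.7% were called in an SI crypt sample, 7.47% in an SI villus sample and 43.6% in no colon sample. A DR3 with at most 1 mismatch was present at 177 sites (12.6%), against 14.6% of the sites of all 3 compartments, 5.57% of crypt-and-villus sites and 0.925% of the flanks on the side of higher coordinates.

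Of the 10 strongest SI crypt sites, 1 held a DR3 and 3 a DR3 with at most 1 mismatch. The nearest match at Esrrg and at Nrp2 had 3 mismatches and that at the Rps19 promoter had 4. A mismatch count is a comparison of letters and does not show where VDR contacts the DNA.

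Accessible chromatin was rare at the sites with a DR3. A pooled ATAC-seq peak overlapped 4 of the 44 in SI crypt, 2 in colon and 1 in SI villus, against 33.9%, 22.8% and 36.5% of the DR3 sites of all 3 compartments. Of the 40 crypt-and-villus sites with a DR3 it overlapped 1 in SI crypt, 1 in colon and 7 in SI villus, so low shares were not particular to the crypt-and-colon sites.

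The summits were less rich in G and C than those of the other classes. The 200 bp at the summit had a median GC content of 53.0% (quartiles 48 and 59.5), against 57.0% for sites of all 3 compartments and 58.5% for crypt-and-villus sites. The classes differ in promoter share, and the gaps were smaller once split. Over 1 kb from a TSS the medians were 51.5%, 52.5% and 55.5%, and within 1 kb they were 65%, 67% and 69.5%. The ratio of observed to expected CpG had a median of 0.27, against 0.42 and 0.48. The nuclear receptor hexamer AGGTCA, part of many DR3 elements, was present at 19.3% of crypt-and-colon summits and 13.02% of their flanks, and at 13.4% of crypt-and-villus summits. The E-box CAGCTG was present at 14.4% and 9.22% of the flanks, and the KLF motif CCACACCC at 4.06% and 1.92%. The CDX motif TTTATNG, of the homeodomain factors of intestinal identity, was found at 7.97% of crypt-and-colon summits and at 3.92% of crypt-and-villus summits, while the flanks held it at 10.2% for crypt-and-colon sites and 12.4% for crypt-and-villus sites. The AP-1 motif TGANTCA was found at 5.69% of the crypt-and-colon summits, 4.98% of their flanks and 5.42% of all SI crypt summits. The FOXA motif TGTTTAC was found at 3.06%, 2.88% of the flanks and 1.92% of all SI crypt summits. Both were near their flank share. The sequence AGATAA, bound by GATA factors, was less frequent at the crypt-and-colon summits (7.62%) than in the flanks (10.7%), and stood at 6.94% of all SI crypt summits. The TCF motif ATCAAAG was found at 2.63%, 3.24% of the flanks and 1.95% of all SI crypt summits. The HNF4 motif CAAAGTCCA, which can overlap with it in CAAAG, was found at 0.712%, 0.356% of the flanks and 0.858% of all SI crypt summits. Over all SI crypt sites, the shares were 17.2% for the hexamer, 12.9% for the E-box, 3.01% for KLF and 5.17% for CDX. The ETS motif CCGGAAGT was found at 0.925% of the crypt-and-colon summits, 0.285% of their flanks and 1.17% of all SI crypt summits. NRF1 was found at 0.142% and HNF1 at 0 of 1405, which allows a share of up to 0.273% (Wilson interval).

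**Figure D4:**
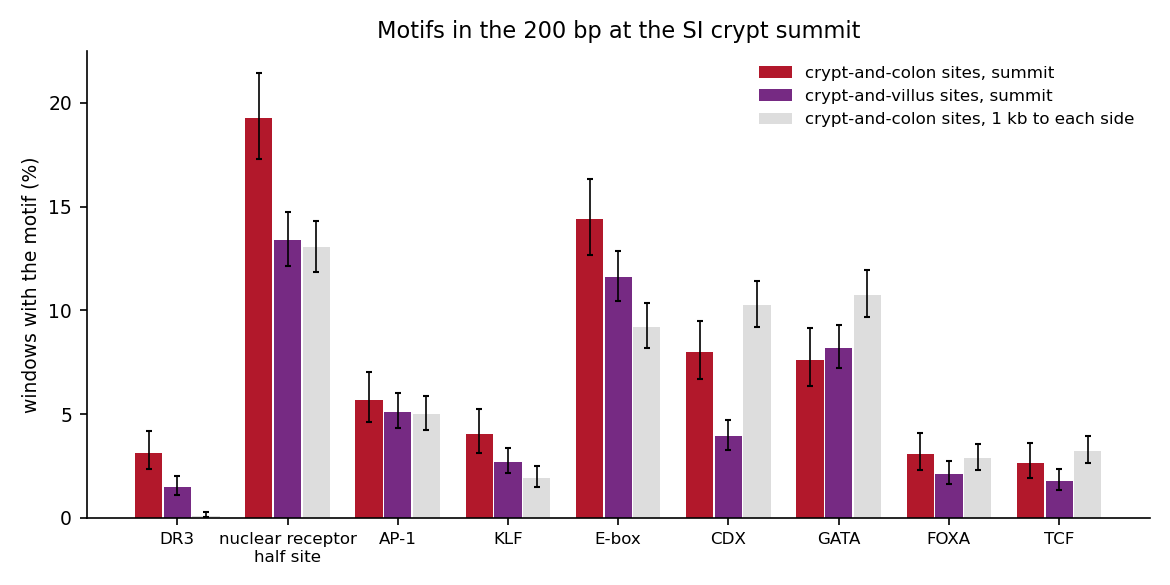
Percent of 200 bp windows that hold each motif on either strand, at the summits of crypt-and-colon sites (red), at those of crypt-and-villus sites (purple) and 1 kb to each side of the crypt-and-colon summits (grey), with 95% Wilson intervals that cover counting error only. DR3 stands at 3.13%, 1.49% and 0.0712%, and CDX at 7.97%, 3.92% and 10.2%.

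The compartments were checked against markers at their promoters. A pooled ATAC-seq peak lay within 1 kb of the TSS of all 4 pan-epithelial markers in each compartment, and of 0 of 6 immune markers in any. Stromal markers had 1 of 5 in each, at Col1a1. Stem cell markers had 5 of 5 in SI crypt, 3 of 5 in colon and 5 of 5 in SI villus, and villus enterocyte markers 5, 1 and 6 of 6. Paneth cell markers had 2 of 3 in SI crypt, 0 in colon and 1 in SI villus, and colon markers 2, 3 and 2 of 5. The stem cell promoters thus did not separate SI crypt from SI villus, and an accessible promoter does not show that a gene is expressed.

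Of the crypt-and-colon sites, a pooled ATAC-seq peak overlapped 43.8% in SI crypt, 37.1% in colon and 40.0% in SI villus, against 50.4%, 43.2% and 53.1% of all SI crypt sites. The share was below that of all SI crypt sites in each compartment. Of the 1405, 670 (47.7%) lay in no pooled ATAC-seq peak and 408 (29.0%) in those of all 3 compartments. Peaks in SI crypt and colon and not in SI villus, the pattern of the VDR calls, covered 42 (2.99%), against 0.672% of crypt-and-villus sites. Peaks in SI crypt and SI villus and not in colon covered 72 (5.12%), against 12.1%.

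In single ATAC-seq samples the crypt-and-colon sites were overlapped at 34.2%, 30.2% and 34.2% in SI crypt, at 24.4%, 26.1% and 31.1% in colon, and at 34.6%, 30.1% and 20.8% in SI villus. The means were 32.9 ± 2.34%, 27.2 ± 3.48% and 28.5 ± 7.04% (SD, n = 3 each), and the ranges of SI crypt and colon both overlapped that of SI villus. SI crypt minus SI villus was 4.39 percentage points (two-sided exact permutation test, p = 0.6), colon minus SI villus −1.28 (exact p = 0.9) and SI crypt minus colon 5.67 (exact p = 0.2). SI crypt and colon together minus SI villus gave 1.55 (exact p = 0.667). The adjusted p over these 4 comparisons was 0.8 to 0.9. The samples held 21269 to 57825 ATAC-seq peaks, fewest in colon, and a sample with more peaks can overlap more sites.

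Within each sample the sites were therefore set against the crypt-and-villus sites, which went through the same SI crypt call. That class was picked for an SI villus VDR peak and no colon peak, so the contrast turns on both classes. Its mean share was 30.6% in SI crypt, 24.3% in colon and 36.4% in SI villus samples. The share of crypt-and-colon sites minus that of crypt-and-villus sites was 2.59, 3.28 and 1.10 percentage points in the SI crypt samples and 1.55, 1.65 and 5.44 in the colon samples. In the SI villus samples it was −5.94, −7.58 and −10.3. All 6 SI crypt and colon samples lay above 0 and all 3 SI villus samples below. The mean of SI crypt and colon exceeded that of SI villus by 10.5 points (exact permutation p = 0.0238, the smallest that 6 samples against 3 allow, adjusted p = 0.0952 over 4 comparisons). SI crypt minus SI villus was 10.3 points and colon minus SI villus 10.8 (exact p = 0.1 for each, the smallest that 3 against 3 allow, adjusted p = 0.133). SI crypt minus colon was −0.56 (exact p = 0.8). With these sample numbers no adjusted p in the family could reach 0.05.

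Promoter and other sites were then taken apart. For sites over 1 kb from a TSS, SI crypt and colon exceeded SI villus by 13.2 points (exact permutation p = 0.0238, adjusted p = 0.0952), and for sites within 1 kb by 1.63 points (exact p = 0.595), where the ranges of samples overlapped. These subsets were chosen after seeing the data, and the difference between them was not tested. For sites with an SI crypt −log10 q of at least 10 the value was 24.6 points, for those of 5 to 10 it was 8.14, and for those under 5 it was 7.15. With the sites of both classes limited to those called in an SI crypt sample other than sample 1, it was 23.7 points.

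**Figure D5:**
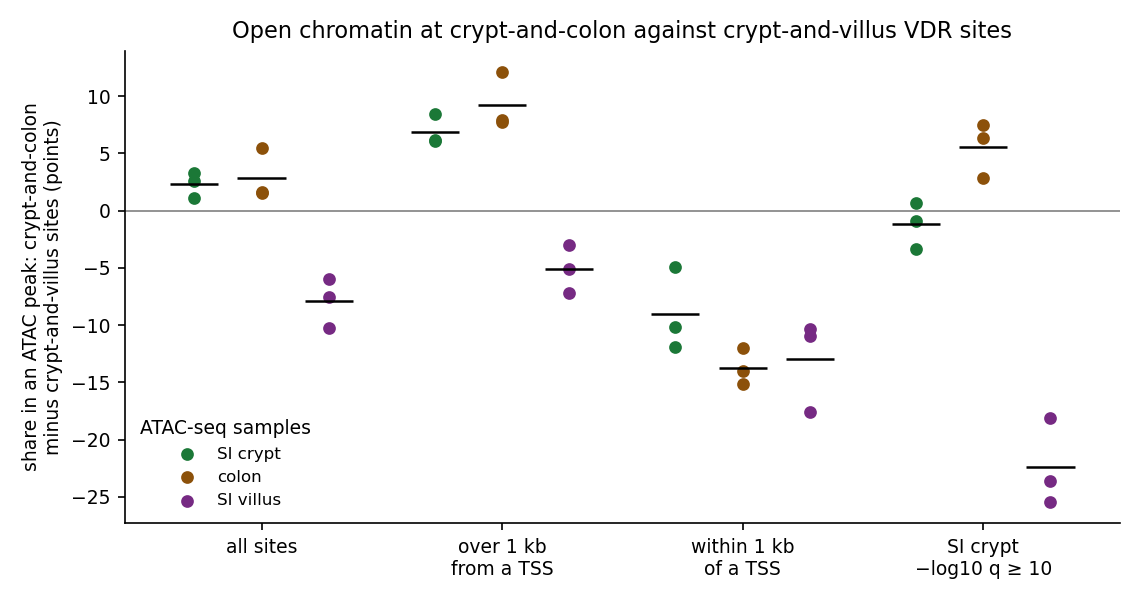
Share of crypt-and-colon sites in an ATAC-seq peak minus the share of crypt-and-villus sites, in percentage points, in each ATAC-seq sample (points, 3 per compartment; bars are means), for all sites and for 3 subsets. For all sites the SI crypt and colon samples lie between 1.10 and 5.44 and the SI villus samples between −10.3 and −5.94, and for sites within 1 kb of a TSS all 9 samples lie below 0.

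Against the sites of all 3 compartments, the crypt-and-colon sites were less often accessible in 9 of 9 samples. The difference within a sample was −26.2 to −22.1 points in SI crypt, −27.8 to −24.6 in colon and −33.3 to −29.0 in SI villus, with a mean of −27.4 (two-sided exact sign-flip permutation test, p = 0.00391, the smallest that 9 samples allow). The crypt-and-colon sites were also the weaker class in VDR strength. Among sites with an SI crypt −log10 q of 5 to 10 the mean difference was −28.1 points, and among those of at least 10 it was −32.3. They were also less often within 1 kb of a TSS (21.1% against 37.1%). Within that distance the mean difference was smaller, at −17.8 points. In pooled SI crypt ATAC-seq peaks the shares were 43.8% against 71.0% over all sites. They were 76.4% against 88.9% within 1 kb of a TSS, and 35.0% against 60.3% farther away.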

How the data were processed

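VDR ChIP-seq (12 samples) and ATAC-seq (9 samples) were analysed from the deposited peak lists. According to the submitters' processing notes the authors used cutadapt 1.9.1, Bowtie2 2.2.6, SAMtools 0.1.19, Picard 2.18.27, MACS2 2.1.0.20150731, bedtools 2.17.0, deepTools and DiffBind on mm9. The authors called peaks at a q-value of 0.05 with no control, on single samples and on the merged alignments of a compartment. The deposited −log10 q is that of MACS2 for a summit against fragments nearby in its own alignment. Per the study's methods the lists were filtered against the mm9 blacklist. The deposited fold enrichment is the ratio of summit pileup to that background, and the deposited pileup is a signal of fragments without scaling to depth. Deposited interval bounds and summits are positions, with the pooled peaks recentred on their summits by the authors. These values rank peaks within a list and were not tested between lists, and with no read counts no count model was fitted.

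Overlap meant at least 1 bp. Sites were placed by the mm9 annotation (22380 protein-coding genes). Motifs were searched on both strands of the 200 bp at the SI crypt summit and of flanks 1 kb away. ATAC-seq shares were compared with two-sided exact permutation tests over samples and Benjamini-Hochberg correction over 4 comparisons, at a threshold of 0.05. Wilson intervals (95%) cover counting error only. Scripts ran in Python 3.11.15 with pysam 0.24.0, scipy 1.17.1, numpy 2.4.6 and, for plots, matplotlib 3.10.9, and the steps were tested on simulated data. ChIP-seq samples held 10588783 to 17970894 fragments and ATAC-seq samples 32767083 to 62692175 tags, and no pair of samples had identical lists.

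The sites, the 14 gene lists, the motifs and the tests were chosen with earlier results of these data known. Of the 335 list entries, 2 symbols were not found. Genes were named when nearest to the 10 strongest sites of SI crypt or colon, to sites called in 2 or more SI crypt and 3 or more colon samples and no SI villus sample, to DR3 sites or to sites in a deposited set above SI villus, and when on a list with a site within 10 kb. Histone and ribosomal protein genes, gene ends and the sites in observations were picked after their values were seen. Intervals as MACS2 gave them, sites split by TSS distance or −log10 q, and a DR3 with up to 1 mismatch were alternatives added after seeing the data. The others were other thresholds, overlap rules, windows and distances, equal numbers of ATAC-seq peaks, and each ATAC-seq sample left out.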

Additional observations from a re-analysis of the deposited data

Results flagged for a closer look

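SI crypt VDR sample 1 held 13381 peaks, against 2188, 1136 and 2480 in the other 3 SI crypt samples. That sample kept 3100376 fragments, the fewest of the 4. Its gap to the nearest sample was 0.890 of the whole range, above Dixon's 95% critical value for 4 samples. Chance marks about 1 in 20 groups in this way. The ratio was taken in each compartment for peaks called, share of these sites called and fragments kept, and only this value passed. Over several such checks, chance marks at least 1 more often than in a single check. Of the 1405 crypt-and-colon sites, 440 were called in that sample and in no other SI crypt sample.

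The share of crypt-and-colon sites in ATAC-seq peaks minus that of crypt-and-villus sites was above 0 in 6 of 6 SI crypt and colon samples and below 0 in 3 of 3 SI villus samples. The means differed by 10.5 percentage points (two-sided exact permutation p = 0.0238, the smallest possible, adjusted p = 0.0952). Crypt-and-villus sites were themselves picked for an SI villus VDR peak and no colon peak, so the sign turns on both classes.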

How the results depend on the processing

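The number of sites followed the rule. With a −log10 q of at least 5 in the SI crypt and colon lists it was 557, of which 47.6% were called in at least 1 SI crypt and 1 colon sample, 18.1% lay within 1 kb of a TSS, 5.39% held a DR3 and 2 cell cycle genes were left. With 50% of the SI crypt peak covered by the colon peak, the calls in both tissues were 30.4%, the promoter share 17.2% and the cell cycle genes 5. With a call in an SI crypt sample other than sample 1 required, 216 sites remained, with 80.1% called in both tissues, a promoter share of 15.7%, a DR3 share of 6.94% and 0 cell cycle genes. The main values were 26.3%, 21.1%, 3.13% and 8 genes. The promoter share was 25.4% within 2 kb, the DR3 share 12.6% with up to 1 mismatch, and the share of linked genes with another SI villus peak 44.2% with no SI villus peak within 1 kb and 79.8% with genes linked over 50 kb.

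The ATAC-seq contrast of SI crypt and colon above SI villus kept its direction in all 23 alternatives (1.63 to 24.6 points, exact permutation tests, adjusted p = 0.0952 to 0.794), and the samples did not overlap in 22, sites within 1 kb of a TSS being the exception. Leaving out 1 sample gave 9.37 to 11.5 points. Colon minus SI villus in this contrast was −0.73 at promoters. SI crypt minus colon changed sign, to 2.07 at a −log10 q of at least 5, 1.16 with 50% cover, 1.55 with no SI villus peak within 1 kb, 0.36 with no call in a single SI villus sample, 1.62 by summits, 4.71 at promoters and 2.91 at a SI crypt −log10 q of 5 to 10, and −1.22 to 0.72 leaving out 1 sample (0.057 without SI crypt ATAC-seq sample 3 and 0.72 without colon sample 3).

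The plain ATAC-seq shares also changed sign. With the 20000 strongest peaks of every sample colon minus SI villus was 6.26 and SI crypt minus colon −3.84 points (exact permutation p = 0.1, adjusted p = 0.133 for each), and samples then did not overlap. Colon minus SI villus was 0.58 at a SI crypt −log10 q of at least 10 and −5.14 to 1.77 leaving out 1 sample (0.12 without colon sample 1 and 1.77 without SI villus sample 1). SI crypt and colon minus SI villus was −0.047 by summits, −0.39 at promoters and −2.30 (without SI villus sample 3) to 4.60 leaving out 1 sample, and SI crypt minus SI villus was −0.11 at promoters. The cause of these changes was not tested. The difference from sites of all 3 compartments stayed negative in all 22 alternatives (−36.5 to −17.8, the latter within 1 kb of a TSS).

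With the replicate number as a replicate block, the contrast was again 10.5 points (exact permutation p = 0.037, adjusted p = 0.148) and the share difference 1.55 (exact p = 0.778). Same-numbered samples did not deviate together (r of −0.034 to 0.017 over 9 pairs), and pairs of different number had r of −0.029 to 0.040. These values cannot show whether same-numbered samples came from the same mouse, since a shared mouse need not leave a trace in peak calls. A peak missed in SI villus at these depths cannot be told apart from no binding.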

Other observations

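Some crypt-and-colon sites were called in single SI villus samples although the pooled SI villus list had no peak on them, 105 in at least 1 sample and 10 in 2 or more. These sites were chosen after their values were seen. The Crip1 promoter site, at a gene of a small LIM protein of the intestine, was called in 4 SI crypt samples (9.54, 6.38, 11.1 and 9.79), 3 colon samples (8.08, 9.07 and 18.4) and 4 SI villus samples (19.1, 12.4, 9.90 and 32.4). The intronic site of Cldn15, a claudin of paracellular sodium transport, was called in 2 SI crypt samples (9.85 and 7.57), 2 colon samples (2.07 and 8.999) and 2 SI villus samples (9.53 and 9.79). At 60 of the 1405 sites the interval as MACS2 gave it, before recentring, met a peak of the full SI villus list.

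Of 665 genes nearest to a crypt-and-colon site within 10 kb, 38 had 2 or more such sites, among them Hnrnpa1, Ppia, Rpl10 and Slc3a2 with 3 each. The widest crypt-and-colon site spanned 2045 bp, and 31 (2.21%) were 1000 bp or longer, against 5.96% of the sites of all 3 compartments.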
